A study of Mus musculus with 2 samples.

Results

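Tcl1, Eras, Akt1, Akt2, Pik3ca, Pik3r1 and Pdpk1 were chosen by name as genes of the PI3K and Akt signalling route in embryonic stem (ES) cells. A gene was measured where a probe on the arrays carried its RefSeq accession. Probes were found for 4 of the 7 genes, Tcl1, Akt1, Pik3ca and Pdpk1, with 1 probe each, among 10149 named genes and 21052 gene probes. Eras, Akt2 and Pik3r1 were matched to no probe by accession and were not analysed here. RNA came from 2 samples of EB5, a mouse ES cell line grown on gelatin without feeder cells, which had been transfected with siRNA against Klf4 and the plasmid pCAGEGFP-IP, then cultured for 24 h and selected in puromycin for a further 24 h. Each sample, labelled with Cy3, was hybridised to 1 dual-colour oligonucleotide array against Universal Mouse Reference RNA labelled with Cy5. That pool combines equal parts of RNA from 11 mouse cell lines that stem from testis, skin, muscle myoblasts, mammary gland, T and B lymphocytes, alveolar macrophages, liver, kidney, embryo fibroblasts and embryo. The labels do not say whether samples 1 and 2 were separate cultures, so the spread between them may be technical. ES cells without Klf4 siRNA were not analysed here, and every comparison below is of siKlf4 ES cells with the pool.

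Class I PI3 kinases couple a catalytic subunit such as p110alpha (encoded by Pik3ca) to a regulatory subunit such as p85alpha (Pik3r1) and make the membrane lipid PIP3 when receptors or Ras proteins call on them. PIP3 brings Akt kinases to the membrane, where PDK1 (Pdpk1) phosphorylates their activation loop. TCL1, a small protein without enzymatic activity, binds the pleckstrin homology domain of Akt and raises its activity. Eras encodes a constitutively active Ras-like protein of mouse ES cells that stimulates PI3K. The route is known for its part in the proliferation and self-renewal of mouse ES cells.

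The ratios of the members rest on single oligonucleotides 60 bases long, shown here because each gene has no other probe. They are given 5′ to 3′ in lower case as the array files list them, whole for Pik3ca and Pdpk1 and as their first 30 bases for Tcl1 and Akt1.
Tcl1: tcacccagggaagccttggtctcctagtaa
Akt1: cagtgcccagaacaattagattcatgtaga
Pik3ca: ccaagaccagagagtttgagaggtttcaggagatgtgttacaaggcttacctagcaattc
Pdpk1: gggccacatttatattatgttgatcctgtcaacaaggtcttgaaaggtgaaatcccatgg
Their GC content was 45% for Tcl1, 43.3% for Akt1, 45% for Pik3ca and 41.7% for Pdpk1, against a median of 41.7% over all tested probes. The longest run of bases in the same orientation that any of the 4 probes shared with another tested gene probe was 13 for Tcl1, 14 for Akt1, 12 for Pik3ca and 13 for Pdpk1. Of these, the Tcl1 probe therefore shared no more than 13 consecutive bases with the probes of its own paralogues. Probes were not compared with whole transcripts, so whether the Tcl1 probe could bind RNA of a paralogue was not examined.

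Signals are in arbitrary intensity units above the local background of each spot, and ratios are log2 of ES cells over reference after background correction and loess scaling of each array. Negative control spots, which match no mouse transcript, set a detection limit at their 95th percentile, at 155 and 178 units in the ES channel and at 40.9 and 58.4 units in the reference channel of arrays 1 and 2. The largest absolute mean log2 ratio at any of the 162 negative control spots was 0.52. In a limma fit that also held these spots, 115 of them passed the p-value limit that an adjusted p under 0.05 set for gene probes. The ratio of 0.52 is therefore given below as a second yardstick. The median log2 ratio of the negative control spots was 0.16, on the higher side of 0. The ES label fitted its markers: 12 of 13 measured ES cell markers were higher than the pool and 0 lower, beside 31.6% and 31.4% of all probes. Their median log2 ratio was 3.53, and Fgf4 did not pass (0.00). Among the 12, Esrrb (0.27) was above the detection limit in neither channel on either array and lay within the negative control range. Fibroblast markers were lower in 9 of 9 cases, beside 31.4% of all probes. Of these, 3 (Col6a1, Lox and Postn) were not above the detection limit in the ES channel on either array. The signals of the 9 fibroblast markers summed to 5388 and 6464 units in the ES channel and to 78819 and 76310 units in the reference. Of 7 measured primitive endoderm markers, 1 was higher (14.3%, beside 31.6% of all probes), 4 were lower (57.1%, beside 31.4%) and 2 did not pass. Their median was -0.14, but the list was split. The higher marker was Lama1 (1.36), and the lower were Pdgfra (-2.81), Sparc (-2.55), Dab2 (-0.98) and Foxa2 (-0.14). Klf4 itself had log2 ratios of 0.43 and 0.59, a comparison with the pool that holds no estimate of the siRNA's effect. In bulk RNA, fewer expressing cell lines in the pool and less RNA per cell cannot be told apart.

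Tcl1, the Akt coactivator, was by far the member that differed most between siKlf4 ES cells and the pool. Its probe gave 4161 and 4979 units in the ES channel of arrays 1 and 2, against 191 and 193 units in the reference channel. Both ES values were far above the detection limit, and both reference values were low but also above it. The log2 ratios were 4.41 and 4.45, a mean of 4.43 ± 0.031 (SD, n = 2) or 21.6-fold higher in the ES cells (limma, adjusted p = 4.71e-07). Only 4 of the 21028 probes tested had a higher mean ratio. When no background was corrected the mean log2 ratio of Tcl1 was 3.17, so the size of the fold depended on that step.

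**Figure D1:**
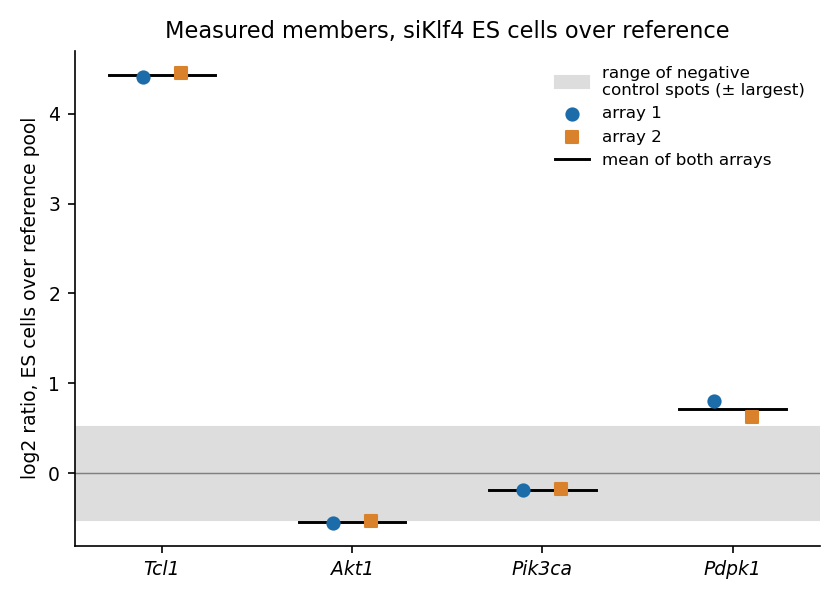
Log2 ratio of siKlf4 ES cells over the reference pool for the 4 measured members, with a point for each of the 2 arrays and a bar at their mean; the grey band spans the largest absolute mean ratio of a negative control spot, 0.52, on both sides of 0. Tcl1 lies near 4.4 on both arrays, Pdpk1 above the band, Akt1 at its lower edge and Pik3ca inside it.

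The promoter of Tcl1 is shown because Tcl1 carries the largest ratio and because the study concerns Klf4, a factor that binds GC-rich and CACCC elements. It spans 250 bases before to 50 bases after the start of the gene at chr12:105222688-105222987 on the minus strand of GRCm38.p6 (RefSeq). Capitals mark matches to GGGCGG and to CACCC, searched on both strands.
Tcl1 promoter: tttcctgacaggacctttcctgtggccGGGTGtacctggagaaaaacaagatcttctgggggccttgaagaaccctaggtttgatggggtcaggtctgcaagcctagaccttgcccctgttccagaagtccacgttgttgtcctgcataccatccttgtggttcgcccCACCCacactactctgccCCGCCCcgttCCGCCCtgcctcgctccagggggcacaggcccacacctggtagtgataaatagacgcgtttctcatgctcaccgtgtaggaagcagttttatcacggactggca
It held 2 matches to GGGCGG and 2 to CACCC, none of which overlapped. Among 32851 RefSeq promoters of the same length, 35.7% held at least 1 match to GGGCGG and 57.5% at least 1 to CACCC. At least as many as in the Tcl1 promoter were held by 19.5% and 25.7%. The matches were not particular to Tcl1 among the measured members. The Akt1 promoters held 0 and 5 matches to GGGCGG, with 0 and 2 to CACCC. Those of Pdpk1 held 0 and 5 to GGGCGG, with 1 and 1 to CACCC, and that of Pik3ca held 1 of each. A match of letters describes the sequence and is not evidence of binding.

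The paralogues of Tcl1 did not share its ratio. In mouse, Tcl1 lies at one end of a cluster on chromosome 12 with the Tcl1b genes, of which Tcl1b4, Tcl1b3, Tcl1b5, Tcl1b1 and Tcl1b2 follow in that order from Tcl1. Of these 5 measured paralogues, 2 were higher than the pool, 0 lower and 3 did not pass, beside 31.6% of all probes higher and 31.4% lower at the same threshold. The highest was Tcl1b3, at log2 ratios of 0.29 and 0.25 (mean 0.27 ± 0.025), followed by Tcl1b5 at 0.19 and 0.19. Both were smaller than the largest negative control ratio. Tcl1b4 had 1105 and 1067 units in the ES channel, against 1270 and 1102 units in the reference, and a mean log2 ratio of -0.08. Tcl1b2 stood at 0.03, and Tcl1b1, at 0.04, was not above the detection limit in the ES channel on either array. On each array the Tcl1 ratio exceeded that of every measured paralogue by at least 4.12 on the log2 scale, the smallest gap being to Tcl1b3 on array 1. These gaps between probes are descriptions with no test.

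**Figure D2:**
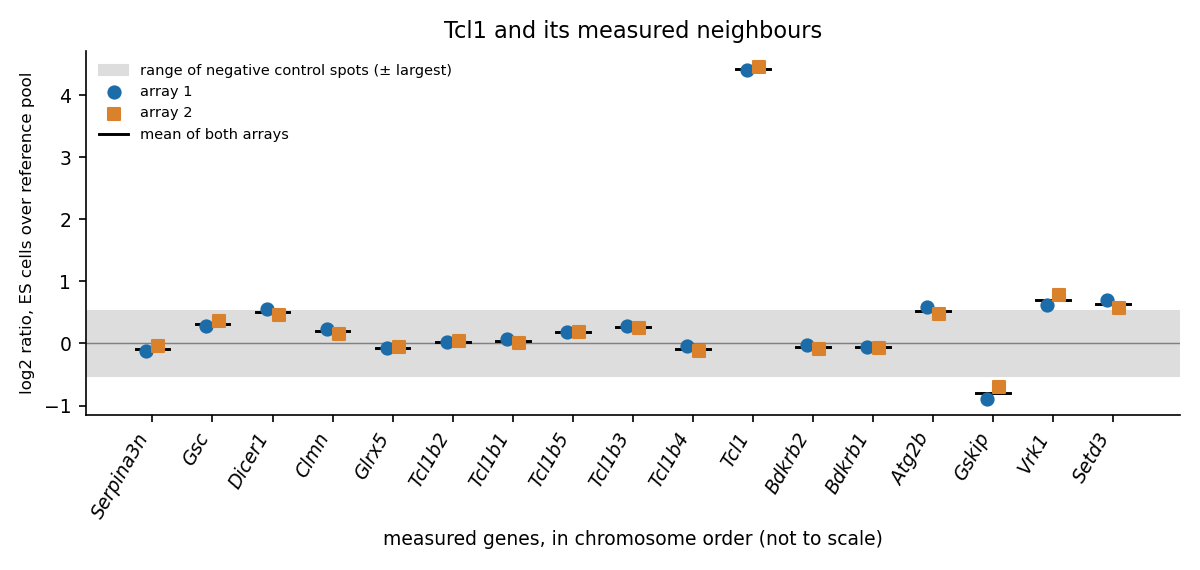
Log2 ratio of siKlf4 ES cells over the reference pool for Tcl1 and the measured protein-coding genes among the 12 on either side, in chromosome order, with a point per array and a bar at the mean; the grey band spans the largest absolute negative control ratio. Tcl1 stands at 4.43 and every other gene shown lies between -0.80 and 0.71.

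The 3 named genes below lay closest to Tcl1 in their pair of ratios on the 2 arrays, by Euclidean distance among 17254 other probes above the ES detection limit. They were Morc1 (4.32 and 4.45, distance 0.086), which silences transposons in the male germline, Gldc (4.28 and 4.40, distance 0.14), the glycine decarboxylase of the glycine cleavage system, and Upp1 (4.31 and 4.28, distance 0.20), a uridine phosphorylase. One unnamed probe was as near. With 2 arrays this likeness is a closeness of ratios only.

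Pdpk1, the kinase that activates Akt, was moderately higher in the siKlf4 ES cells. Its probe gave 862 and 959 units in the ES channel, against 511 and 571 units in the reference. The ES values were above the reference values on both arrays, and all 4 were well above the detection limits. Log2 ratios of 0.80 and 0.62 gave a mean of 0.71 ± 0.13 (SD, n = 2), a 1.64-fold difference (limma, adjusted p = 0.000146). The mean exceeded the largest negative control ratio, and 8.66% of all probes were higher. Its arrays differed by 0.18 on the log2 scale, the widest gap among the members.

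Akt1, which encodes a broadly expressed Akt kinase, was slightly lower in ES cells treated with Klf4 siRNA than in the pool. Its probe was dim, with 210 and 235 units in the ES channel, against 205 and 211 units in the reference. These raw values overlap, but the channels do not share a zero: the median negative control spot read 129 and 138 units in the ES channel and 28.5 and 32.3 units in the reference. Above those medians Akt1 had 81.2 and 96.5 units in the ES channel, against 177 and 179 units in the reference. After correction the log2 ratios were -0.56 and -0.53, with a mean of -0.55 ± 0.017 (SD, n = 2), so that the reference was 1.46-fold higher (limma, adjusted p = 9.39e-05). That size only just passed the largest negative control ratio, and without background correction the mean was -0.19, inside that range.

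Pik3ca, which encodes the catalytic subunit p110alpha, differed least. It had 302 and 378 units in the ES channel, against 271 and 327 units in the reference, each above its detection limit. The raw ES values were the higher ones, but the channels do not share a zero. Above the median negative control spot, Pik3ca had 173 and 240 units in the ES channel, against 243 and 294 units in the reference. The log2 ratios of -0.19 and -0.18 averaged -0.18 ± 0.0039 (SD, n = 2), or 1.14-fold lower in the ES cells (limma, adjusted p = 0.00718). Although it passed the threshold, this ratio was smaller than the largest negative control ratio, and it was -0.07 without background correction.

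**Figure D3:**
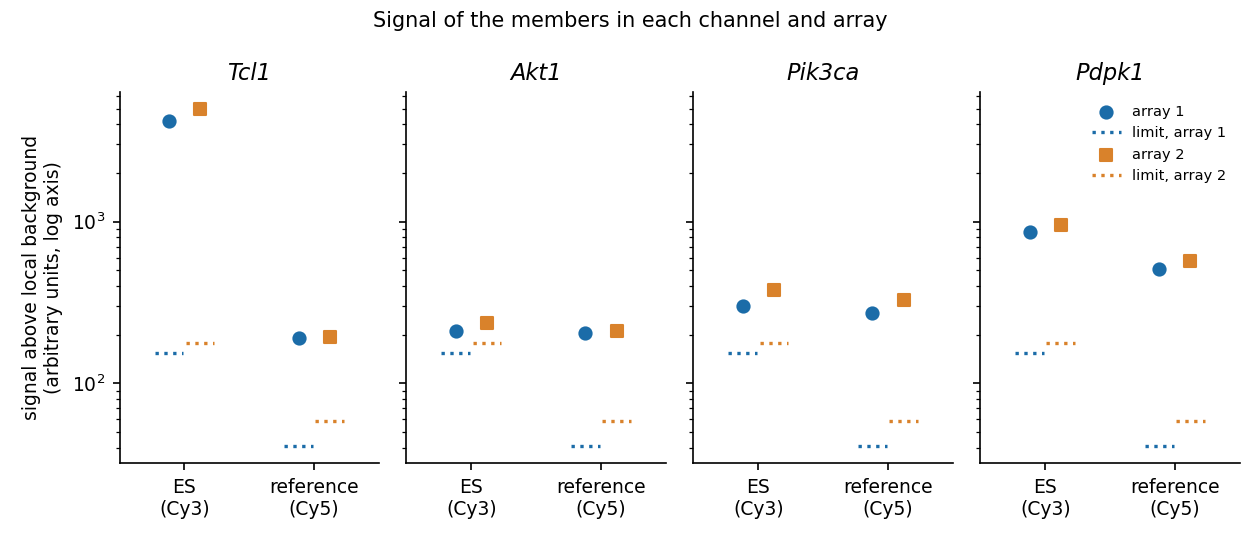
Signal above local background (arbitrary units, log axis) of each measured member in the ES channel and the reference channel, with a symbol for each array and dotted lines at the detection limit of that channel and array. Signals of different probes are not comparable with each other; within a panel, Tcl1 is 4161 and 4979 units in ES cells and 191 and 193 in the reference, while Akt1 lies close above the ES limits.

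Of the 4 measured members, Tcl1 and Pdpk1 were thus higher and Akt1 and Pik3ca lower at an adjusted p under 0.05, a threshold that 31.6% of all probes passed as higher and 31.4% as lower. Tcl1 was the only 1 that reached 2-fold, which 5.08% of all probes did as higher and 5.19% as lower. The order of the ratios, Tcl1, Pdpk1, Pik3ca and Akt1 from high to low, was the same on both arrays. Tcl1 exceeded Pdpk1 by 3.61 and 3.83 on the log2 scale, and Pdpk1 exceeded Akt1 by 1.36 and 1.15. Akt1 and Pik3ca differed by only -0.37 and -0.35 (Akt1 minus Pik3ca). These differences between probes were not tested.

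The rest of the route was described with 8 lists of genes grouped by role, which held 137 genes, 90 of them measured. Across these 90, 35 were higher in the siKlf4 ES cells (38.9%), 27 lower (30.0%) and 28 did not pass. At this threshold the shares over all probes were 31.6% and 31.4%. The median log2 ratio was 0.04 against -0.01 over all probes. At least 2-fold, 9 of the 90 were higher and 11 lower, beside 5.08% and 5.19% of all probes. Counting only ratios beyond the largest negative control ratio, 15 of the 90 were higher and 17 lower, beside 12.1% and 10.8% of all probes. At both of these limits the shares of the 90 were larger than those of all probes, in each direction. That difference was not tested. The 90 are named genes, each at its brightest probe, whereas all probes include unnamed ones. No list's median changed when genes with a bound in place of a fold were set at that bound. Each of these bounds lay on the same side of its list's median as the fold, so the medians could not move.

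Among Ras family GTPases, relatives of Eras that relay receptor signals, 3 of 9 measured passed as higher and 3 as lower (33.3% each). These shares were near the 31.6% and 31.4% of all probes, and the median was -0.03. Of the 9, 1 was higher and 2 lower beyond the largest negative control ratio, beside 12.1% and 10.8% of all probes. Nras was the highest, with 839 and 1043 units in the ES channel, against 522 and 540 units in the reference, and a log2 ratio of 0.78 ± 0.067. Mras (0.40) was also called higher but stayed within the negative control range, and Hras did not pass (0.13). On the other side stood Rit1 at -1.29 ± 0.0076, the adhesion regulator Rap1a at -1.09 ± 0.20 with a second probe at -1.06, and Rras at -0.51.

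Among PI3K subunits other than Pik3ca and Pik3r1, 3 of 7 measured were higher and 3 lower (42.9% each), beside 31.6% and 31.4% of all probes, and 1 did not pass. Of the 7, 2 in each direction lay beyond the largest negative control ratio, beside 12.1% of all probes as higher and 10.8% as lower. The calls of Pik3c2a and Pik3cg did not. Pik3cb, which encodes the catalytic subunit p110beta, gave 283 and 345 units in the ES channel, against 102 and 108 units in the reference. Its log2 ratio was 0.79 ± 0.11, opposite in sign to that of Pik3ca. Pik3c3, the class III kinase of endosomes and autophagy, stood at 0.60 ± 0.099, and Pik3c2a at 0.24, with each channel above its limit on 1 array only. The regulatory subunit gene Pik3r2 was lower at -0.55 ± 0.060 and Pik3cg, the catalytic subunit known from leukocytes, at -0.24. For the regulatory subunit gene Pik3r3 the probes disagreed: the brighter had 609 and 712 units in the ES channel, against 4005 and 4203 units in the reference, and a log2 ratio of -2.62 ± 0.049, whereas the dimmer stood at -0.12.

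Among receptors and adaptors upstream of PI3K, 4 of 12 measured passed as higher (33.3%, beside 31.6% of all probes) and 5 as lower (41.7%, beside 31.4%). Their median was -0.02. Beyond the largest negative control ratio, 2 of the 12 were higher and 3 lower, beside 12.1% and 10.8% of all probes. Kit, the receptor of stem cell factor, had 539 and 649 units in the ES channel, against 36.0 and 43.4 units in the reference, where it was not above the detection limit on either array. With the reference raised to that limit, the ratio of Kit was at least 5.79-fold, with ES cells on the high side (limma, adjusted p = 7.78e-07). The docking protein gene Gab1 was higher too, with 678 and 815 units in the ES channel, against 214 and 236 units in the reference, and a log2 ratio of 1.47 ± 0.0051. Both platelet-derived growth factor receptor genes, typical of mesenchymal cells, were lower. Pdgfrb stood at -1.99 ± 0.082, and Pdgfra at -2.81 ± 0.25, although Pdgfra was above the detection limit in the ES channel on only 1 array. Lifr, called higher at 0.26, was above the limit in neither channel on either array, nor was the insulin receptor substrate gene Irs1, which did not pass (-0.01).

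Among phosphatases and inhibitors of the route, 4 of 7 measured were lower (57.1%, beside 31.4% of all probes), 1 was higher and 2 did not pass. One of the lower calls, Inpp5e at -0.12, was above the ES detection limit on neither array and lay within the negative control range. That leaves 3 of the 7 lower beyond that range, beside 10.8% of all probes. The higher gene was Inpp5d, which encodes the lipid phosphatase SHIP1 that removes a phosphate from PIP3. Its probe gave 1300 and 1666 units in the ES channel, against 237 and 246 units in the reference. The log2 ratio of 2.46 ± 0.10 made it 5.51-fold higher in the ES cells (limma, adjusted p = 1.56e-06). Its relative Inppl1 (SHIP2) did not pass, at 0.04. Among the Tribbles pseudokinase genes, whose products bind Akt or target proteins for degradation, Trib1 had 184 and 195 units in the ES channel, against 573 and 573 units in the reference, and a log2 ratio of -2.04 ± 0.054. Trib2 was not above the ES detection limit on either array, so the reference was at least 1.59-fold higher. Phlda3, a pleckstrin homology protein that competes with Akt for PIP3, stood at -0.70 ± 0.058.

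**Figure D4:**
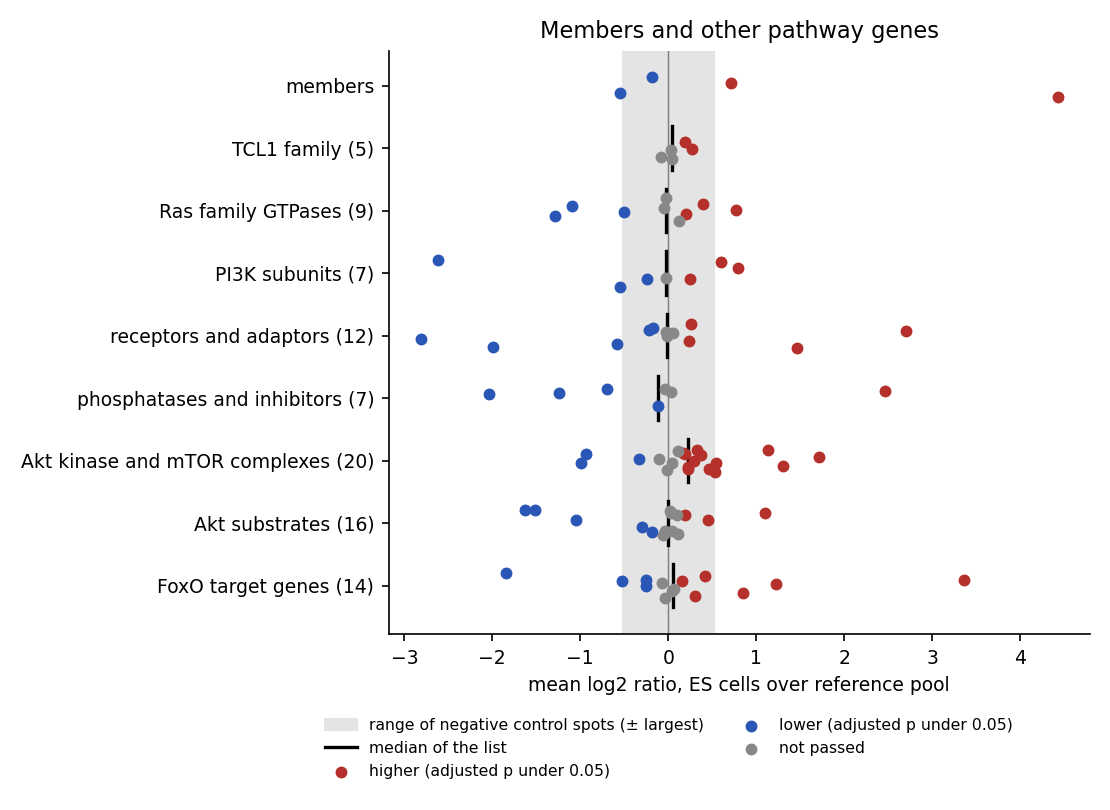
Mean log2 ratio of siKlf4 ES cells over the reference pool for the 4 members (top row) and for the measured genes of each pathway list, with red for higher, blue for lower and grey for not passed, a black bar at each list's median and a grey band at the largest absolute negative control ratio; vertical scatter within a row has no meaning. The list medians lie between -0.12 and 0.23, while Tcl1, Klf2, Kit and Inpp5d stand furthest to the right.

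Kinases of the Akt family, mTOR complex genes and their partners had 13 of 20 measured genes higher (65.0%, beside 31.6% of all probes), 3 lower (15.0%, beside 31.4%) and 4 not passed, with a median of 0.23. The chaperone gene Hsp90aa1, whose product stabilises Akt, was saturated in the ES channel of both arrays by its brighter probe. At that value it was at least 3.28-fold higher, a log2 ratio of 1.71, and its second probe had a log2 ratio of 2.07. Eif4ebp1, a translational repressor that mTOR inactivates, had 2832 and 3134 units in the ES channel, against 1225 and 1249 units in the reference, and a log2 ratio of 1.31 ± 0.082. Its relative Eif4ebp2 stood at 1.13 ± 0.17. The kinase genes Sgk1 (0.55 ± 0.16) and Mtor (0.53 ± 0.054) passed the largest negative control ratio by a narrow margin. The 3 lower genes were Ddit4, a stress-induced inhibitor of mTOR signalling (-0.99 ± 0.076), the integrin-linked kinase gene Ilk (-0.94) and Telo2 (-0.33). The count of 13 was 5 when ratios within the negative control range were set aside, a limit that 12.1% of all probes passed as higher. Among the 8 set aside was Sgk3 (0.33), above the detection limit in neither channel on either array.

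Among genes of proteins that Akt phosphorylates, 3 of 16 measured were higher (18.8%, beside 31.6% of all probes), 5 lower (31.2%, beside 31.4%) and 8 did not pass. Their median was 0.00. Past the largest negative control ratio lay 1 higher and 3 lower genes of the 16, beside 12.1% and 10.8% of all probes. The transcription factor genes Foxo1, Foxo3 and Foxo4, which Akt keeps out of the nucleus, did not pass, at 0.04, 0.04 and -0.03, nor did Gsk3b at 0.02. Lower were the pro-apoptotic gene Bad, with 682 and 757 units in the ES channel, against 2046 and 2126 units in the reference (-1.51 ± 0.084), and the CDK inhibitor gene Cdkn1a (-1.63 ± 0.051). For Cdkn1b the ES signal was not above the detection limit on either array, so the reference was at least 1.78-fold higher. The Hippo pathway coactivator gene Yap1 was higher at 1.10 ± 0.099.

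Among genes known as FoxO targets, which FoxO factors induce when Akt is inactive, 6 of 14 measured passed as higher (42.9%, beside 31.6% of all probes). As lower, 4 passed (28.6%, beside 31.4%), and the median was 0.05. Beyond the largest negative control ratio, 3 of the 14 were higher and 2 lower, beside 12.1% and 10.8% of all probes. Klf2 was 10.3-fold higher, at log2 ratios of 3.49 and 3.24. The antioxidant genes Cat and Sod2 stood at 1.22 ± 0.022 and 0.85 ± 0.062. The atypical cyclin gene Ccng2 was lower, with 999 and 1129 units in the ES channel, against 4064 and 3762 units in the reference, and a log2 ratio of -1.85 ± 0.039. Bnip3 stood at -0.53 and Txnip did not pass (0.04). Many of these genes answer to other factors as well, and transcript levels do not measure the activity of Akt.

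The members kept their direction and their call under each of the 8 other settings that were tried on all of them. Averaging a gene's probes and leaving out dim probes could not change a member's ratio, since each has 1 probe above the limits, and the deposited series table gave nearly the ratios of the processed signals. Tcl1 ranged from 3.17 to 4.74, Pdpk1 from 0.48 to 0.74, Akt1 from -0.72 to -0.19 and Pik3ca from -0.26 to -0.07 on the log2 scale. Both arrays had the same dye orientation, so a dye effect stays in every ratio and was not tested.

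**Figure D5:**
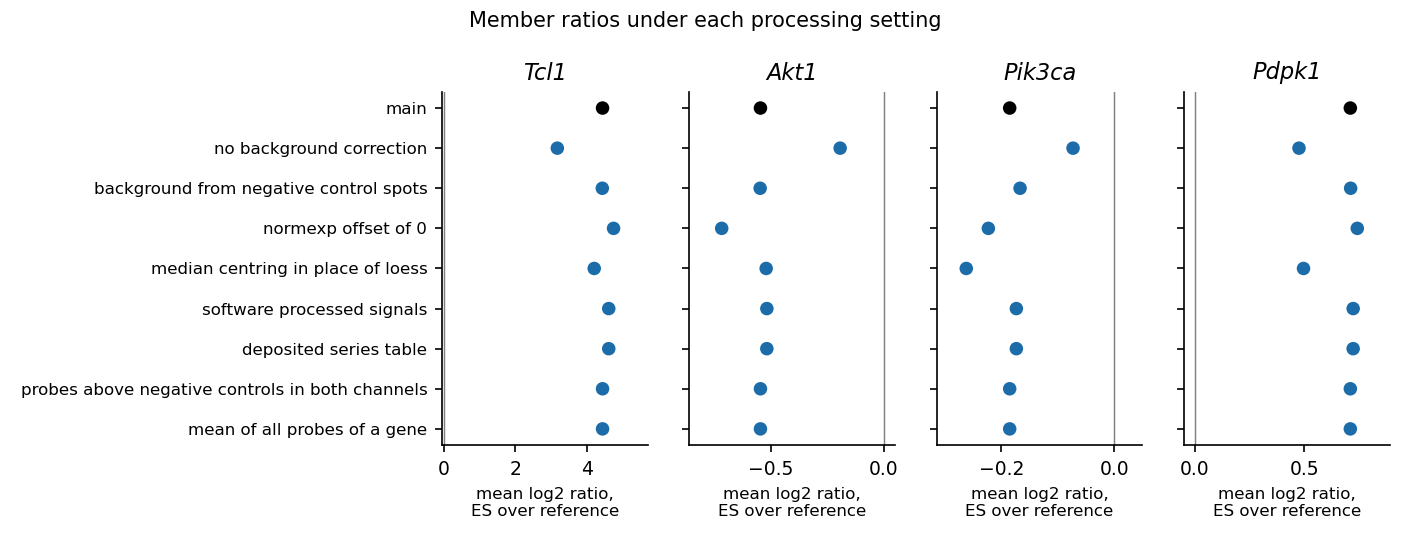
Mean log2 ratio of siKlf4 ES cells over the reference pool for each measured member under the reported setting (black, top row) and 8 other processing settings (blue); each panel has its own scale and a grey line at 0. No member crosses 0, and the setting without background correction lies nearest to 0 for each of them.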

How the data were processed

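Per the file headers, the authors quantified each array with Agilent Feature Extraction A.7.5.1. The deposited intensity columns are the mean signal, the local background and a dye-normalized processed signal of each spot; the headers list LOWESS parameters and give the background method only as a code. The deposited log10 ratio is red over green processed signal. No source used here says how the authors made the deposited series table of log10 values; each value equalled the mean log10 red processed signal minus that array's log10 ratio within 2e-04 for 99.6% of probes.

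With limma 3.58.1 in R 4.3.3, mean signals were corrected by normexp (offset 50), loess-normalized within arrays with control spots at weight 0, and tested against 0 over 21028 probes with Benjamini-Hochberg adjustment, after 24 outlier probes were left out. The fit had 1 residual and 4.24 prior degrees of freedom. The number of arrays limits the precision. RefSeq accessions named 10422 probes; the brightest probe stood for a gene. The members and lists were chosen with earlier results of these data known. By rule, up to 4 genes per list with the largest absolute ratios were named; others were named after their values were seen. A bound raises a dim channel to the 95th percentile of negative controls, or takes a saturated one at its value, and is given only where that channel stays on its side. Gene order is that of GRCm38.p6. Not every gene counted in a list is reported by name here.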

Additional observations from a re-analysis of the deposited data

How the results depend on the processing

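Each of the 4 members kept its direction and stayed under an adjusted p of 0.05 (limma) in the 8 other settings: no background correction, background from negative control spots, a normexp offset of 0, median centring, the software's processed signals, the deposited series table (which nearly repeats those signals), and, unable to change a member's ratio, only probes above the negative controls and the mean of a gene's probes. The adjusted p ran up to 0.000377 for Tcl1, 0.00342 for Pdpk1, 0.00300 for Akt1 and 0.0239 for Pik3ca. Without background correction Tcl1 stood at 3.17, Pdpk1 at 0.48, Akt1 at -0.19 and Pik3ca at -0.07; with median centring Pdpk1 stood at 0.50. Leaving out either array, which gives values with no test, left Tcl1 at 4.41 to 4.45, Pdpk1 at 0.62 to 0.80, Akt1 at -0.56 to -0.53 and Pik3ca at -0.19 to -0.18. With 1 array no calls can be counted. When calls were kept only beyond the largest negative control ratio, a limit chosen after seeing the data, the pathway counts were 15 higher and 17 lower in place of 35 and 27, and those over all probes 2552 and 2273 in place of 6654 and 6612. Under the other settings these counts stayed within 1.5 times. Each array holds both RNAs compared, so the tested ratios pair them within the array. The samples form 1 group, so no further pairing between samples was possible. Dim probes such as Akt1 in the ES channel are limited by the negative control signal.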

Other observations

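The genes around the Tcl1 cluster did not share the ratio of Tcl1. Among the 12 protein-coding genes on either side of Tcl1, 11 outside its family were measured, and their log2 ratios of siKlf4 ES cells over the pool ran from -0.80 to 0.71 with a median of 0.20. Of these, 6 were higher and 1 lower, beside 31.6% and 31.4% of all probes, and 0 reached 2-fold. Beyond the largest negative control ratio of 0.52, 3 of the 11 were higher and 1 lower, beside 12.1% and 10.8% of all probes. The nearest measured gene beyond the Tcl1b end, Glrx5, an iron-sulphur cluster assembly gene, stood at -0.07, and the nearest on the other side, the bradykinin receptor gene Bdkrb2, at -0.06. The only lower gene was Gskip, which encodes a protein that binds GSK3beta, with 248 and 300 units in the ES channel, against 364 and 362 units in the reference, and log2 ratios of -0.89 and -0.71. The kinase gene Vrk1 was the highest of the 11, at 0.63 and 0.79. These neighbours were chosen by position after the ratio of Tcl1 was known.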
